A study of Homo sapiens with 12 samples.

Results

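PC9 cells treated for 36 h with 0.1 µM osimertinib were compared with PC9 cells treated for 36 h with 10 µM erlotinib, which is the one direct comparison of both EGFR inhibitors in this line at the same time in culture. The comparison rests on 4 libraries of the 12 in the series, 2 per drug, and members were chosen by their labelled line, drug and time. PC9 is an established human non-small cell lung cancer line with an activating EGFR mutation, and the labels give the genotype of all samples as Wild-type, with no engineered change. Cells were plated in wells, left overnight and drugged the next day, and polyA RNA was sequenced after the treatment. No vehicle-treated sample of 36 h is among the samples, and 2 PC9 libraries collected at drugging (T0, 0.1% DMSO) are given here as reference levels, with no test. The doses differed by a factor of 100, so what follows from the compound and what follows from its dose cannot be told apart. The study describes its replicates as biological, and p-values rest on the spread between 2 such libraries per group.

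Erlotinib is a reversible, ATP-competitive EGFR inhibitor, and osimertinib is a covalent one that binds a cysteine at the edge of the ATP pocket and spares the unmutated receptor. Both block the ERK and PI3K pathways downstream of mutant EGFR, on which such lung cancer cells depend for growth. A separate arm of cell physiology, the integrated stress response, is switched on when kinases that sense amino acid shortage, unfolded proteins in the endoplasmic reticulum, double-stranded RNA or heme deficit phosphorylate the initiation factor eIF2. Bulk translation then falls while the mRNA of the transcription factor ATF4 is translated more, and ATF4 raises genes for serine and asparagine synthesis, amino acid import and charging of tRNA, together with regulators such as CHOP (DDIT3), TRIB3 and CHAC1.

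The 4 libraries held between 18550718 and 25673318 reads counted on genes, and 3 reads, the limit that a count of 0 allows, corresponded to between 0.117 and 0.168 normalized CPM (reads scaled to a common library size), for counting error only. Mitochondrial genes took between 6.32% and 7.2% of the reads. Replicates differed by more than sampling noise, with a chi-square per degree of freedom of 6.77 for erlotinib and 6.27 for osimertinib, and values between 35.2 and 40.5 for pairs of libraries across the drugs. All 6 epithelial markers exceeded 1 CPM. Of the markers of other cell types, 1 of 7 for leukocytes (ITGAM), 1 of 7 for fibroblasts (COL1A1) and 2 of 6 for endothelial cells did, while CD3E, COL3A1, PDGFRA and CLDN5 had 0 reads in the 4 libraries. The summed leukocyte markers lay at 6.83 and 7.3 CPM after erlotinib and at 17.5 and 19 CPM after osimertinib, nearly all of it ITGAM, and the summed fibroblast markers at 20.8 and 24.7 against 37.8 and 45.9 CPM, nearly all of it COL1A1; their part in the results below was not tested.

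Of 19108 genes tested, 3163 (16.6%) passed an adjusted p of 0.05 in edgeR's quasi-likelihood test. Of these, 1938 (10.1% of the genes tested) were higher after osimertinib and 1225 (6.41%) higher after erlotinib. A difference over 2-fold was found for 523 of them, 353 higher after osimertinib and 170 higher after erlotinib, and the median size of the log2 difference over all genes was 0.22. Log2 differences below are osimertinib minus erlotinib, so that a negative value means a higher level after erlotinib, and they are given ± SE from the fit. Counts of called list members below are to be read beside the 10.1% of all genes higher after osimertinib and the 6.41% higher after erlotinib. These shares depend on the filter, as genes with few reads are among those tested. With at least 10 counts in every library, 13076 genes were tested. Of these, 1768 were higher after osimertinib and 1251 higher after erlotinib, which are larger shares. Among genes of at least 10 CPM, the 10 highest after erlotinib were ADM2, PSAT1, CHAC1, PHGDH, NUPR1, STC2, PCK2, MTHFD2, SLC1A4 and TRIB3, and the 10 highest after osimertinib were CLEC7A, FOS, GABRP, ZBED6CL, FOSB, IGFBP5, TNNC1, SUSD2, KRT17 and STC1. The former include the serine synthesis enzymes PHGDH and PSAT1, and their log2 differences, from -5.25 to -2.63, were larger in size than those of the latter, from 1.67 to 2.40.

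**Figure D1:**
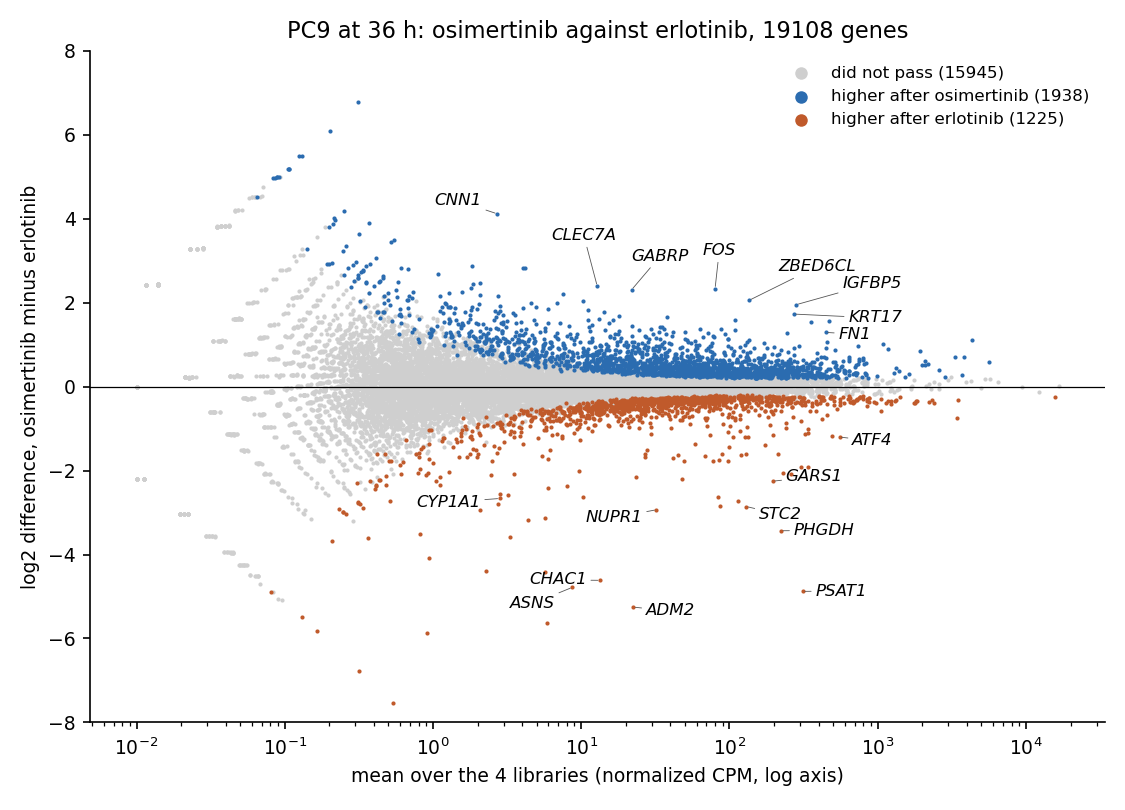
Log2 difference between osimertinib and erlotinib in PC9 cells (vertical axis) against the mean normalized CPM of the 4 libraries (horizontal log axis), with 1 point per tested gene. Blue points (1938) passed the test with a higher level after osimertinib and orange points (1225) with a higher level after erlotinib, and PSAT1, at a log2 difference of -4.88, lies far below other genes of its level.

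The genes regulated by ATF4 differed most. Of the 24 ATF4 target genes listed, all tested, 19 (79.2%) were higher after erlotinib and 2 (ATF5 and PPP1R15A) higher after osimertinib, against 6.41% and 10.1% of all genes, and the median log2 difference of the list was -1.69, against 0.0036 over all genes. The mRNA of ATF4 itself (chr22:39519695-39522685, plus strand, GRCh38) was at 764 and 778 CPM after erlotinib and at 326 and 345 CPM after osimertinib, a log2 difference of -1.20 ± 0.067 (adjusted p = 1.15e-13, edgeR). The level after osimertinib lay near that of T0, 287 and 304 CPM. Genes named after ATF4 as pseudogenes number 4 in GENCODE 29, so some of its reads may be split with copies.

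ASNS encodes asparagine synthetase, CHAC1 an enzyme that degrades glutathione, and FGF21 a secreted hormone induced by ATF4. They are the members that were higher after erlotinib and that hold the letters TGATGNAA, a composite C/EBP-ATF element, on either strand of the RefSeq promoter window (250 bases before to 50 after the start, GRCh38.p14). Of 14 members higher after erlotinib with a promoter in that table, 3 (21.4%) hold these letters, against 3.67% of all 27305 promoters and 1.85% of 12201 promoters of tested genes. In the whole list 4 of 19 promoters (21.1%) hold them, so the share among members higher after erlotinib is that of the list. The 250 bases before the start are printed 5′ to 3′ along the gene's strand, with the match in capitals, in the order ASNS (chr7:97872409-97872658, minus strand), CHAC1 (chr15:40953221-40953470, plus strand) and FGF21 (chr19:48755274-48755523, plus strand). The match begins 68 bases before the start in ASNS, 209 bases in CHAC1 and 54 bases in FGF21. The bases just after the RefSeq start of FGF21 were not found in a GENCODE 29 transcript of that gene. Whether the RefSeq starts are starts of GENCODE 29 transcripts was not tested.
ASNS: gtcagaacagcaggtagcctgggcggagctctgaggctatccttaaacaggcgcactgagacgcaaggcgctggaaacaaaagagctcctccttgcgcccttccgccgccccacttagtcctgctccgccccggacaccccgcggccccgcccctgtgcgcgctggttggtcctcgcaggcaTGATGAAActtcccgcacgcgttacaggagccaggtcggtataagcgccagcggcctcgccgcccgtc
CHAC1: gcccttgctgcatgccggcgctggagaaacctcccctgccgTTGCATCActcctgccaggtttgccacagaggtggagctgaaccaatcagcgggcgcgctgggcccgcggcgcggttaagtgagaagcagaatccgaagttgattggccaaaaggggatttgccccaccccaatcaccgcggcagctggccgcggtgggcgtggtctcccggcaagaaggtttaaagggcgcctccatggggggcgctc
FGF21: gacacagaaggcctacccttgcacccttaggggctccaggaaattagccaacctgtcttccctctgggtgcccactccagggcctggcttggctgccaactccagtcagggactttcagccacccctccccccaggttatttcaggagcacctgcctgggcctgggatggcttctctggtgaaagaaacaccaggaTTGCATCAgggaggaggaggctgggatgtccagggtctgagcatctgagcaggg

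ASNS was at 15.3 and 18.3 CPM after erlotinib and at 0.88 and 0.28 CPM after osimertinib, and T0 cells had 0.55 and 0.74 CPM. Its log2 difference was -4.78 ± 0.27 (adjusted p = 2.19e-13), and the libraries of the drugs did not overlap. CHAC1 was at 28.9 and 22.4 CPM after erlotinib and 0.92 and 1.18 CPM after osimertinib, with 1.66 and 1.04 CPM at T0 (log2 difference -4.61 ± 0.22, adjusted p = 3.12e-15). FGF21 had 13 and 2 reads after erlotinib and 0 and 0 after osimertinib, at least 4.12-fold higher against 3 reads over the group. INHBE, which encodes an activin subunit, had 25 and 26 reads against 0 and 0, at least 14-fold higher. For both genes the level is near the detection limit, and the median of the list is the same with them at these bounds.

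NUPR1, a stress-induced chromatin protein, was at 56.2 and 57.5 CPM after erlotinib and at 6.47 and 8.52 CPM after osimertinib (log2 difference -2.93 ± 0.12, adjusted p = 3.21e-16), while T0 cells had 0 and 0.20 CPM. Both drugs thus left it above T0, with a higher level after erlotinib. STC2, a secreted glycoprotein, was at 232 and 226 CPM against 31.7 and 31.4 CPM, with 130.4 and 130.9 CPM at T0, so that the T0 level lay between those of the drugs. TRIB3, a pseudokinase that damps AKT and ATF4 activity, showed the same order, with 150.4 and 136 CPM after erlotinib, 53.8 and 52.8 CPM at T0 and 24.4 and 21.9 CPM after osimertinib (log2 difference -2.63 ± 0.092, adjusted p = 4.82e-18). The mTORC1 inhibitors SESN2 and DDIT4 had log2 differences of -2.16 ± 0.12 and -1.77 ± 0.089, and DDIT3 (CHOP) one of -1.05 ± 0.17. DDIT3 was at 14.8 and 16.9 CPM after erlotinib and 8.37 and 6.95 CPM after osimertinib, and its exons overlap MARS1 and MBD6 on the opposite strand.

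ADM2, a peptide of the calcitonin family that is not on the list, had the largest difference among genes of at least 10 CPM. It was at 43.1 and 44.3 CPM after erlotinib and at 1.06 and 1.23 CPM after osimertinib, a log2 difference of -5.25 ± 0.20 (adjusted p = 1.89e-17), and T0 cells had 1.71 and 1.43 CPM. The other list members higher after erlotinib were CBS (-2.01), CEBPG (-1.78), GPT2 (-1.76), VEGFA (-1.63), GDF15 (-1.26), CTH (-0.80), SLC7A11 (-0.68), CEBPB (-0.53) and JDP2 (-0.44), given as log2 differences. The 3 members that did not pass had log2 differences between -0.10 and 0.18, among them ATF3 at 0.12 and KLHL24 at 0.18. ATF5 was at 25.4 and 27.3 CPM after erlotinib and 33.4 and 35.2 CPM after osimertinib, and PPP1R15A, the phosphatase subunit that reverses eIF2 phosphorylation, at 123 and 133 CPM against 149.6 and 152 CPM. PPP1R15A was chosen after its values were seen. The calls of both did not hold without erlotinib replicate 1 (log2 0.33, adjusted p = 0.0612 for ATF5 and log2 0.19, adjusted p = 0.237 for PPP1R15A) or without osimertinib replicate 2 (log2 0.34, adjusted p = 0.06 and log2 0.22, adjusted p = 0.151), and that of PPP1R15A not without osimertinib replicate 1 (log2 0.25, adjusted p = 0.0942).

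**Figure D2:**
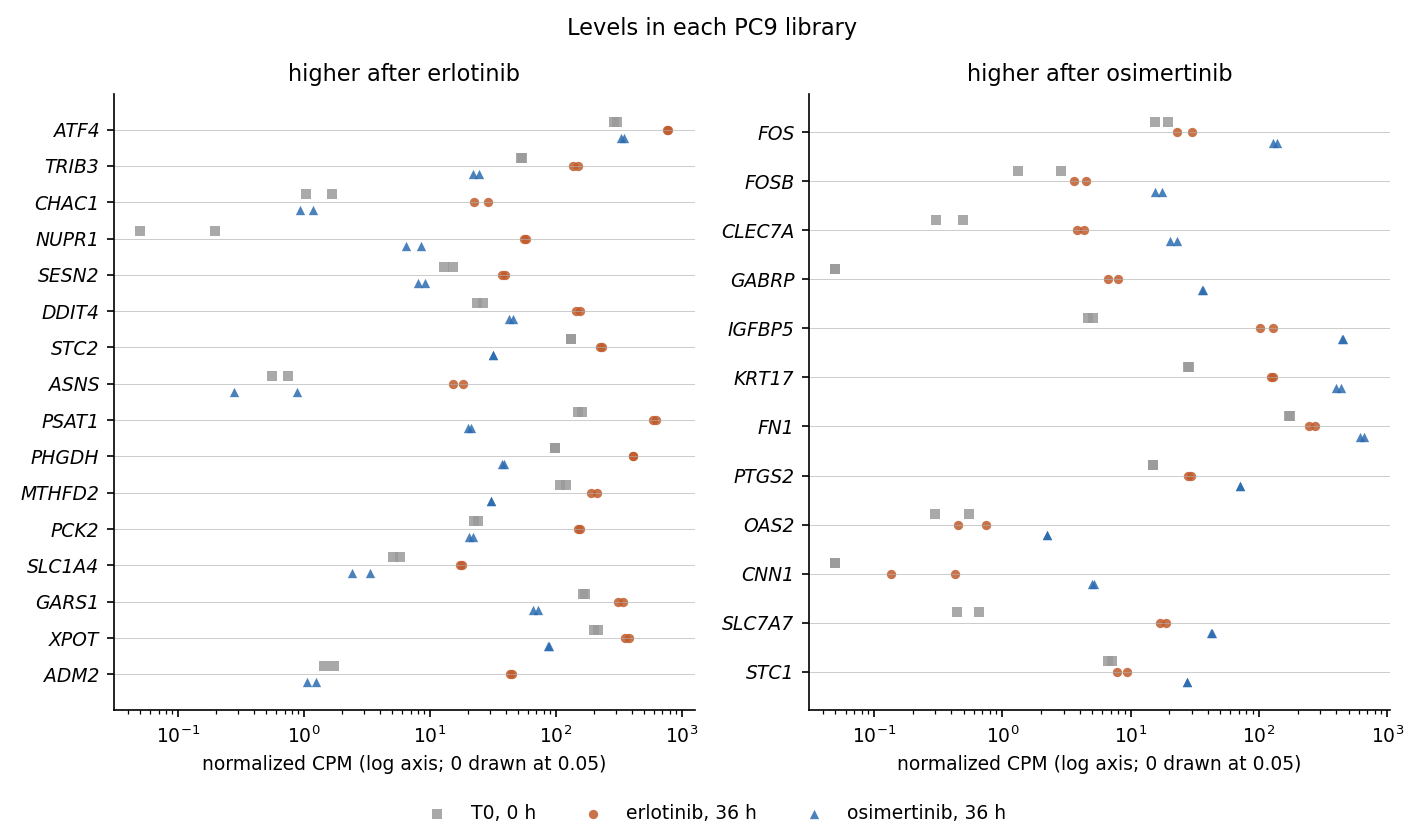
Normalized CPM (log axis, 0 drawn at 0.05) in each PC9 library of T0 (grey squares), erlotinib (orange circles) and osimertinib (blue triangles), 2 libraries each. For PSAT1, PHGDH, MTHFD2, STC2, TRIB3, SESN2, SLC1A4, GARS1 and XPOT the T0 libraries lie between those of the drugs, while for ASNS, CHAC1 and ADM2 the osimertinib libraries lie beside or below T0; for the genes on the right the osimertinib libraries lie highest.

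The enzymes that make serine and carry its carbon into folate metabolism followed the same direction. Of 19 genes of serine, one-carbon and proline synthesis, 10 were higher after erlotinib, 3 higher after osimertinib and 6 did not pass, with a median log2 difference of -0.38. PHGDH, which commits 3-phosphoglycerate to serine, was at 410.0 and 406 CPM after erlotinib and at 37.1 and 38.5 CPM after osimertinib (log2 difference -3.43 ± 0.076, adjusted p = 7.84e-23). PSAT1, the aminotransferase of the next step, was at 589 and 619.8 CPM against 20.2 and 21 CPM (log2 difference -4.88 ± 0.085, adjusted p = 3e-25), a ratio of 29.4. The libraries at T0 held 150.3 and 160.7 CPM of PSAT1 and 98.6 and 97.4 CPM of PHGDH, so erlotinib and osimertinib lay on opposite sides of T0. PSPH, the phosphatase that completes the pathway, differed far less, at 71.3 CPM against 55 CPM on average (log2 difference -0.38, adjusted p = 0.00328). PSAT1 has 4 pseudogenes named after it.

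Several enzymes of the mitochondrial branch of folate metabolism were higher after erlotinib. MTHFD2, the mitochondrial methylene-tetrahydrofolate dehydrogenase, was at 189.5 and 210.3 CPM after erlotinib and at 30.3 and 30.2 CPM after osimertinib (log2 difference -2.72 ± 0.083, adjusted p = 2.11e-19), with 7 pseudogenes named after it. ALDH1L2, MTHFD1L and SHMT2, all mitochondrial, had log2 differences of -4.41, -1.62 and -1.60. Their cytosolic counterparts MTHFD1 and SHMT1 did not pass, with 0.10 and -0.03. These genes other than MTHFD2 were chosen after their values were seen, and the difference between branches was not tested. PYCR1, which makes proline, had a log2 difference of -1.16, while ALDH18A1, the enzyme that opens proline synthesis, was higher after osimertinib, at 66.2 and 69.9 CPM against 45.8 and 49.1 CPM (log2 difference 0.52 ± 0.081, adjusted p = 2.98e-05). PCK2, the mitochondrial phosphoenolpyruvate carboxykinase, was at 154 and 149 CPM after erlotinib and 20.5 and 22 CPM after osimertinib (log2 difference -2.83 ± 0.094, adjusted p = 1.63e-18), and T0 cells had 23.8 and 22.4 CPM.

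Aminoacyl-tRNA synthetases load each tRNA with its amino acid, and largely separate sets serve the cytosol and the mitochondria. Of 20 genes for cytosolic synthetases, 13 (65%) were higher after erlotinib, 1 (RARS1) was higher after osimertinib and 6 did not pass, with a median log2 difference of -1.03. Of 17 genes for mitochondrial synthetases, 2 (11.8%), MARS2 among them, were higher after erlotinib and 15 did not pass, with a median of -0.039. The difference between these lists was not tested. GARS1, a glycyl-tRNA synthetase used in both compartments, was at 309 and 343 CPM after erlotinib and 65.6 and 71.4 CPM after osimertinib (log2 difference -2.25 ± 0.078, adjusted p = 4.26e-18). T0 cells had 163 and 169 CPM of it, between the drugs. RARS1 was at 110.2 and 110.2 CPM against 134.9 and 138 CPM (log2 difference 0.31 ± 0.077, adjusted p = 0.00502). The call of MARS2 (log2 difference -0.50 ± 0.15, adjusted p = 0.0159) did not hold without erlotinib replicate 1 (log2 -0.36, adjusted p = 0.197), without osimertinib replicate 1 (log2 -0.50, adjusted p = 0.0913) or without osimertinib replicate 2 (log2 -0.51, adjusted p = 0.0764).

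**Figure D3:**
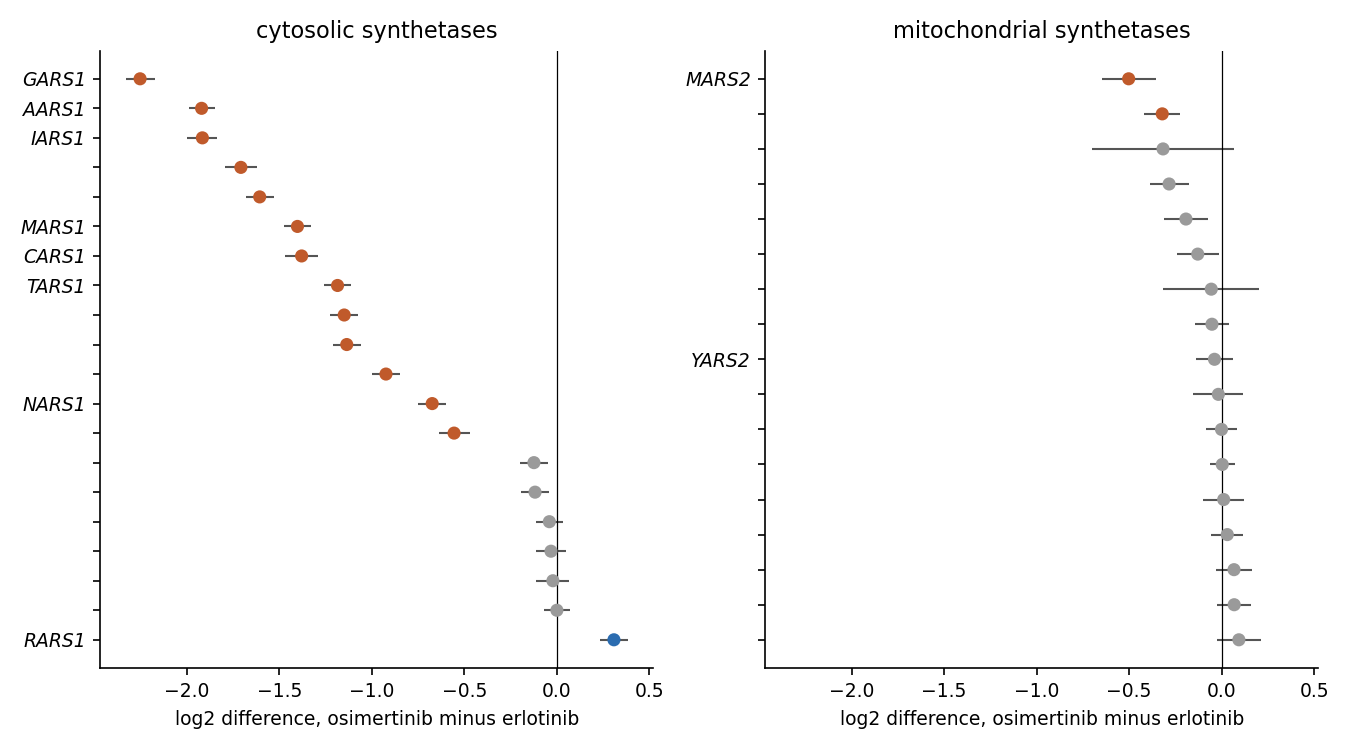
Log2 difference between osimertinib and erlotinib in PC9 cells for 20 cytosolic and 17 mitochondrial synthetase genes, with bars of 1 SE and names for the genes in the text. Orange points passed with a higher level after erlotinib, the blue point (RARS1) with a higher level after osimertinib and grey points did not pass. The genes listed as cytosolic reach -2.25 (GARS1, used in both compartments) and the mitochondrial ones -0.50.

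The letters TGATGNAA occur within the promoter windows of 6 of the 16 cytosolic synthetases that the RefSeq table holds (37.5%). All 6 (AARS1, IARS1, CARS1, MARS1, TARS1 and NARS1) were higher after erlotinib, with log2 differences from -1.92 to -0.67. Of the 11 in that table that were higher after erlotinib, 6 (54.5%) hold these letters, so others were higher without them. The match begins 187 bases before the start in AARS1. It begins 13, 4 and 2 bases before the start in IARS1, MARS1 and CARS1, and after the start in TARS1 and NARS1. Among 14 mitochondrial synthetases in the table, 1 (7.14%) holds them, YARS2, which did not pass (log2 difference -0.039, adjusted p = 0.872). A stretch of 40 bases with the match in capitals is printed for AARS1 (chr16:70289670-70289709, minus strand, GRCh38.p14), where it begins 187 bases before the start, and for YARS2 (chr12:32756071-32756110, minus strand), where it begins 197 bases before the start. In AARS1 the match is on the other strand, and the matches of these genes differ in the base that N leaves free.
AARS1: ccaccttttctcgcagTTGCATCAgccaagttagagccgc
YARS2: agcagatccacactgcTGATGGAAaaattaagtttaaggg
AARS1 was at 473 and 492 CPM after erlotinib and at 124 and 131 CPM after osimertinib (log2 difference -1.92 ± 0.07, adjusted p = 9.2e-18). XPOT, which exports tRNA from the nucleus and was chosen after its values were seen, was at 355 and 382 CPM against 87.2 and 88.4 CPM (log2 difference -2.07 ± 0.079, adjusted p = 2.16e-17).

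Amino acid transporters moved both ways. Of 18 tested, 8 (44.4%) were higher after erlotinib and 4 higher after osimertinib, with a median log2 difference of -0.16. SLC43A1, a carrier of branched-chain and aromatic amino acids, was at 4.84 and 4.72 CPM after erlotinib and 0.65 and 0.73 CPM after osimertinib (log2 difference -2.79 ± 0.39, adjusted p = 5.04e-06). SLC1A4, which takes up alanine, serine and cysteine, was at 17.4 and 18 CPM against 2.40 and 3.36 CPM (log2 difference -2.64 ± 0.15, adjusted p = 1.15e-13). SLC7A7, the light chain of a cationic amino acid exchanger, lay at the other end. It was at 18.9 and 17 CPM after erlotinib, 43.5 and 42 CPM after osimertinib and below 1 CPM at T0 (log2 difference 1.26 ± 0.15, adjusted p = 3.09e-07).

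CYP1A1 and CYP1B1, cytochrome P450 enzymes that the aryl hydrocarbon receptor induces and that oxidize many drugs, were higher after erlotinib. CYP1A1 was at 5.33 and 4.41 CPM after erlotinib and 0.74 and 0.78 CPM after osimertinib (log2 difference -2.67 ± 0.29, adjusted p = 1.28e-07), and T0 cells had 0.30 and 0.54 CPM. CYP1B1 was at 191 and 183 CPM against 80.1 and 83.1 CPM (log2 difference -1.20 ± 0.078, adjusted p = 3.76e-12). Of 14 genes of this receptor's list, 5 (35.7%) were higher after erlotinib and 1, UGT1A6, higher after osimertinib (log2 difference 0.62 ± 0.11, adjusted p = 0.000113), and the median was -0.076. UGT1A6 shares exons with 8 other genes of the UGT1A locus, so its reads cannot be assigned with certainty. TIPARP, another target of the receptor, was at 129 and 134 CPM against 119 and 131 CPM and did not pass (adjusted p = 0.607).

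NRF2 targets, which detoxify electrophiles, were also mixed, with 8 of 25 (32%) higher after erlotinib and 4 (16%) higher after osimertinib (median log2 difference -0.065). ABCC3, an efflux pump on this list and on that of drug efflux transporters, was at 153 and 142 CPM after erlotinib and 89.6 and 83.9 CPM after osimertinib (log2 difference -0.76 ± 0.085, adjusted p = 1.58e-07). It was the 1 efflux transporter of 6 tested that passed (median -0.11). PRDX1, a peroxiredoxin, had a log2 difference of 0.32, which did not pass without erlotinib replicate 1 (log2 0.25, adjusted p = 0.106) or without osimertinib replicate 2 (log2 0.19, adjusted p = 0.224). Genes of nucleolar ribosome biogenesis, which process ribosomal RNA, had 15 of 26 (57.7%) higher after erlotinib, 11 that did not pass and a median of -0.27. POLR1B, a core subunit of RNA polymerase I, was at 42.2 and 47.4 CPM against 28.8 and 29.3 CPM (log2 difference -0.62 ± 0.091, adjusted p = 1.02e-05), both below the T0 level of 96 CPM.

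FOS, FOSB and EGR1, transcription factors of the early response to growth factors, were higher after osimertinib. FOS, a subunit of the AP-1 transcription factor, was at 29.9 and 23.2 CPM after erlotinib and at 139 and 128 CPM after osimertinib, with 19.7 and 15.6 CPM at T0 (log2 difference 2.34 ± 0.11, adjusted p = 3.02e-15). FOSB, of the same family, was at 4.48 and 3.63 CPM against 17.5 and 15.6 CPM (log2 difference 2.04 ± 0.17, adjusted p = 5.19e-10). EGR1, an early growth response factor, was at 53.6 and 55.6 CPM against 175 and 150 CPM, a log2 difference of 1.57. The levels after erlotinib overlapped none of those after osimertinib for these genes.

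Of 20 genes of ERK output, 7, FOS and EGR1 included, were higher after osimertinib and 2, PHLDA1 and ETV5, higher after erlotinib, with a median log2 difference of 0.18. Without FOS and EGR1, 5 of 18 were higher after osimertinib (DUSP5, SPRY1, IER3, EPHA2 and EPHA4). The early response gene FOSL1 did not pass (log2 difference 0.26, adjusted p = 0.118). The feedback phosphatase DUSP6 was at 0.31 and 0.31 CPM after erlotinib and 0.37 and 0.34 CPM after osimertinib (log2 difference 0.18 ± 0.55, adjusted p = 0.897), and SPRY4 had at most 2 reads in any of the 4 libraries, so no difference was detectable at this depth. T0 cells had 12.8 CPM of DUSP6 and 23.9 CPM of SPRY4 on average. ETV4 (log2 difference -0.59, adjusted p = 0.0662) and CCND1 (log2 difference 0.13 ± 0.067, adjusted p = 0.197) did not pass, but ETV4 passed without osimertinib replicate 2 (log2 -0.99, adjusted p = 0.0136) and in a fit of the 6 PC9 libraries (adjusted p = 0.0494). PHLDA1 was at 15.8 and 14 CPM after erlotinib and 8.32 and 6.62 CPM after osimertinib (log2 difference -0.98 ± 0.12, adjusted p = 4.42e-07). ETV5 had 28 and 16 reads against 8 and 7 (log2 difference -1.26, adjusted p = 0.0356), a call that did not hold in a fit of the 4 libraries alone (adjusted p = 0.0949), nor without erlotinib replicate 1 (log2 -0.71, adjusted p = 0.45), osimertinib replicate 1 (log2 -1.22, adjusted p = 0.186) or osimertinib replicate 2 (log2 -1.30, adjusted p = 0.126).

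The receptors EGFR, ERBB2 and ERBB3 did not pass in edgeR. EGFR was at 638 and 710.4 CPM after erlotinib and 739 and 777 CPM after osimertinib (log2 difference 0.17 ± 0.074, adjusted p = 0.132), ERBB2 had a log2 difference of 0.095 ± 0.071 (adjusted p = 0.422) and ERBB3 one of 0.20 ± 0.073 (adjusted p = 0.0585). ERBB3 passed in DESeq2 (adjusted p = 0.0369) and where only genes of 10 or more counts per library were tested (adjusted p = 0.0383). Of 16 tested receptors and ligands, 2 (12.5%) were higher after osimertinib and 1 (6.25%) higher after erlotinib (median 0.066), near the 10.1% and 6.41% of all genes. NRG1, a ligand of ERBB3, was at 3.63 and 3.90 CPM against 5.83 and 6.28 CPM (log2 difference 0.68 ± 0.16, adjusted p = 0.00391), and ERRFI1, an intracellular inhibitor of EGFR, at 42.3 and 40 CPM against 32 and 31.8 CPM (log2 difference -0.37 ± 0.083, adjusted p = 0.00216). FOXO targets, which rise when AKT is inhibited, had 4 of 20 (20%) higher after osimertinib and 2 (10%) higher after erlotinib (median 0.18). SESN1 stood highest among them (log2 difference 0.76 ± 0.17, adjusted p = 0.00167) and KLF6 lowest (-0.39 ± 0.084, adjusted p = 0.00119).

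Interferon-stimulated genes, the antiviral programme driven by STAT and IRF factors, were higher after osimertinib or did not pass. Of 37 tested, 21 (56.8%) were higher after osimertinib, beside 10.1% of all genes, and 16 did not pass; the median log2 difference was 0.67. IFIT1, which binds foreign RNA caps, was at 2.82 and 3.24 CPM after erlotinib and 7.82 and 7.12 CPM after osimertinib (log2 difference 1.30 ± 0.16, adjusted p = 1.1e-06). OAS2, a sensor of double-stranded RNA, was at 0.45 and 0.74 CPM against 2.22 and 2.24 CPM (log2 difference 1.87 ± 0.29, adjusted p = 3.14e-05). IFIT2 was at 17.6 and 19.4 CPM against 47.5 and 52.5 CPM (log2 difference 1.43 ± 0.096, adjusted p = 5.81e-12). Of the factors themselves, IRF9 did not pass (adjusted p = 0.596), while STAT2 (log2 difference 0.42, adjusted p = 0.000146) and IRF1 (0.35, adjusted p = 0.0127) were higher after osimertinib.

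The letters TTTC, any 2 bases and TTTC are the core of the interferon-stimulated response element. In this order, on either strand, they occur in 16 of 27 promoters of the list that the RefSeq table holds (59.3%). They occur in 3.65% of all promoters and in 2.84% of the promoters of tested genes. Of members higher after osimertinib, 9 of 14 (64.3%) hold them, which is near the share of the whole list. Stretches of 40 bases are printed, with every match in them in capitals, for the 3 members of largest difference with a mean of at least 1 CPM that hold them before the start, IFIT1 (chr10:89392492-89392531, plus strand), IFI44L (chr1:78620269-78620308, plus strand) and SAMD9 (chr7:93118091-93118130, minus strand), all GRCh38.p14. In IFI44L and SAMD9 the match is on the other strand and so reads as GAAA, any 2 bases and GAAA.
IFIT1: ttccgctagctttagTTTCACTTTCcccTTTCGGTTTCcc
IFI44L: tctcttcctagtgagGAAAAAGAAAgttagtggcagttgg
SAMD9: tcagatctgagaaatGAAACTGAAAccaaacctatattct
IFI44L was at 0.91 CPM after erlotinib and 1.80 CPM after osimertinib on average (log2 difference 0.97 ± 0.28, adjusted p = 0.0169), and SAMD9 at 23.3 and 43.6 CPM (0.90 ± 0.088, adjusted p = 1.3e-08). Genes of MHC class I presentation had 4 of 15 higher after osimertinib and 11 that did not pass (median 0.17). HLA-F among them had a log2 difference of 0.62 ± 0.17 (adjusted p = 0.00921), which did not pass without erlotinib replicate 2 (log2 0.51, adjusted p = 0.11) or without osimertinib replicate 2 (log2 0.55, adjusted p = 0.082).

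Contractile genes serve actin and myosin filaments, and many are regulated by the transcription factor SRF. Of 17 genes of this list, 12 (70.6%) were higher after osimertinib and 5 did not pass (median log2 difference 0.61). CNN1, the smooth muscle calponin, had 3 and 11 reads after erlotinib and 109 and 93 after osimertinib, that is 0.13 and 0.43 CPM against 5.04 and 5.21 CPM (log2 difference 4.12 ± 0.48, adjusted p = 3.87e-07). Of the abundant cytoplasmic actins, ACTB was at 4523 and 4459 CPM against 6433 and 6970.2 CPM, a log2 difference of 0.58 (adjusted p = 3.41e-07), while ACTG1, at means of 5399 and 6079.9 CPM, did not pass (log2 difference 0.17, adjusted p = 0.0791). TNNC1, a troponin of slow muscle that is not on the list, was at 4.79 and 4.96 CPM against 14.7 and 19.9 CPM (log2 difference 1.81 ± 0.16, adjusted p = 1.01e-09).

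Of 26 genes of epithelial-mesenchymal transition and matrix, 12 (46.2%) were higher after osimertinib and 14 did not pass (median 0.42). FN1, fibronectin, was at 245 and 274 CPM after erlotinib and 615 and 654 CPM after osimertinib, with 171 and 176 CPM at T0 (log2 difference 1.29 ± 0.078, adjusted p = 6.4e-13). Of 15 genes of epithelial identity, 9 were higher after osimertinib and 1, ESRP1, higher after erlotinib (median 0.24), and KRT8 was at 2506 and 2536 CPM against 3964 and 4280.0 CPM (log2 difference 0.71 ± 0.069, adjusted p = 1.11e-08), with 50 pseudogenes named after it, while KRT7 did not pass (log2 difference 0.11, adjusted p = 0.346). ESRP1, a splicing factor of epithelial cells, had a log2 difference of -0.29 ± 0.074, which did not pass without erlotinib replicate 2 (log2 -0.24, adjusted p = 0.0873) or osimertinib replicate 1 (log2 -0.24, adjusted p = 0.0961). KRT17, a keratin of basal and stressed epithelia, was at 129 and 124 CPM against 399 and 439 CPM, a ratio of 3.31 (adjusted p = 2.13e-15), with 8 pseudogenes named after it.

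YAP and TEAD targets had 11 of 20 (55%) higher after osimertinib and 1, NT5E, higher after erlotinib (median 0.32). Among the former, CCN2, a matricellular protein, was at 56.8 and 65.3 CPM after erlotinib and 137 and 133 CPM after osimertinib (log2 difference 1.14, adjusted p = 4.43e-11). ANKRD1 had the largest difference, 1.20 ± 0.34 at 0.79 and 1.89 CPM on average, a call that did not hold without erlotinib replicate 1 (log2 0.76, adjusted p = 0.197) or osimertinib replicate 2 (log2 0.82, adjusted p = 0.236). NT5E had a log2 difference of -0.30, which did not pass without erlotinib replicate 2 (log2 -0.21, adjusted p = 0.201) or osimertinib replicate 2 (log2 -0.23, adjusted p = 0.184). NF-kB targets had 7 of 17 higher after osimertinib and 10 that did not pass (median 0.28). PTGS2, the inducible cyclooxygenase, was at 27.9 and 29.6 CPM against 70.7 and 71.8 CPM (log2 difference 1.31 ± 0.12, adjusted p = 8.51e-09). CXCL8 had 0 and 0 reads after erlotinib and 6 and 4 after osimertinib, at least 4.05-fold higher against 3 reads over the group.

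Several of the most different genes belong to none of these groups. CLEC7A, a receptor for fungal glucans known from myeloid cells, was at 4.34 and 3.83 CPM after erlotinib and 20.3 and 22.8 CPM after osimertinib (log2 difference 2.40 ± 0.15, adjusted p = 1.32e-12). GABRP, a subunit of the GABA-A receptor found in epithelia, had 0 CPM in both T0 libraries, 6.67 and 8 CPM after erlotinib and 36 and 36.8 CPM after osimertinib (log2 difference 2.31 ± 0.17, adjusted p = 2.31e-10). IGFBP5, which binds insulin-like growth factors, was at 103 and 129 CPM against 454 and 446 CPM, with 4.69 and 5.08 CPM at T0 (log2 difference 1.95 ± 0.086, adjusted p = 8.27e-16). For these genes both drugs lay above T0, and osimertinib lay highest. ZBED6CL was at 54.5 and 50.9 CPM against 230.2 and 208 CPM, SUSD2 at 6.90 and 6.05 CPM against 23.4 and 20.9 CPM, and STC1, a secreted stanniocalcin, at 9.36 and 7.89 CPM against 27.3 and 27.6 CPM, with log2 differences of 2.06, 1.78 and 1.67. STC1 and its paralogue STC2 thus lay at opposite ends of the comparison. Of 9 tested genes of lung lineage and surfactant, 3 were higher after osimertinib and 1 higher after erlotinib (median 0.22). MUC1, a cell surface mucin, was at 79.4 and 79 CPM against 135 and 131 CPM (log2 difference 0.75 ± 0.074, adjusted p = 1.76e-08), and ABCA3, the lipid pump of lamellar bodies, at 8.82 and 9.96 CPM against 5.36 and 5.83 CPM (log2 difference -0.75 ± 0.17, adjusted p = 0.00196).

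**Figure D4:**
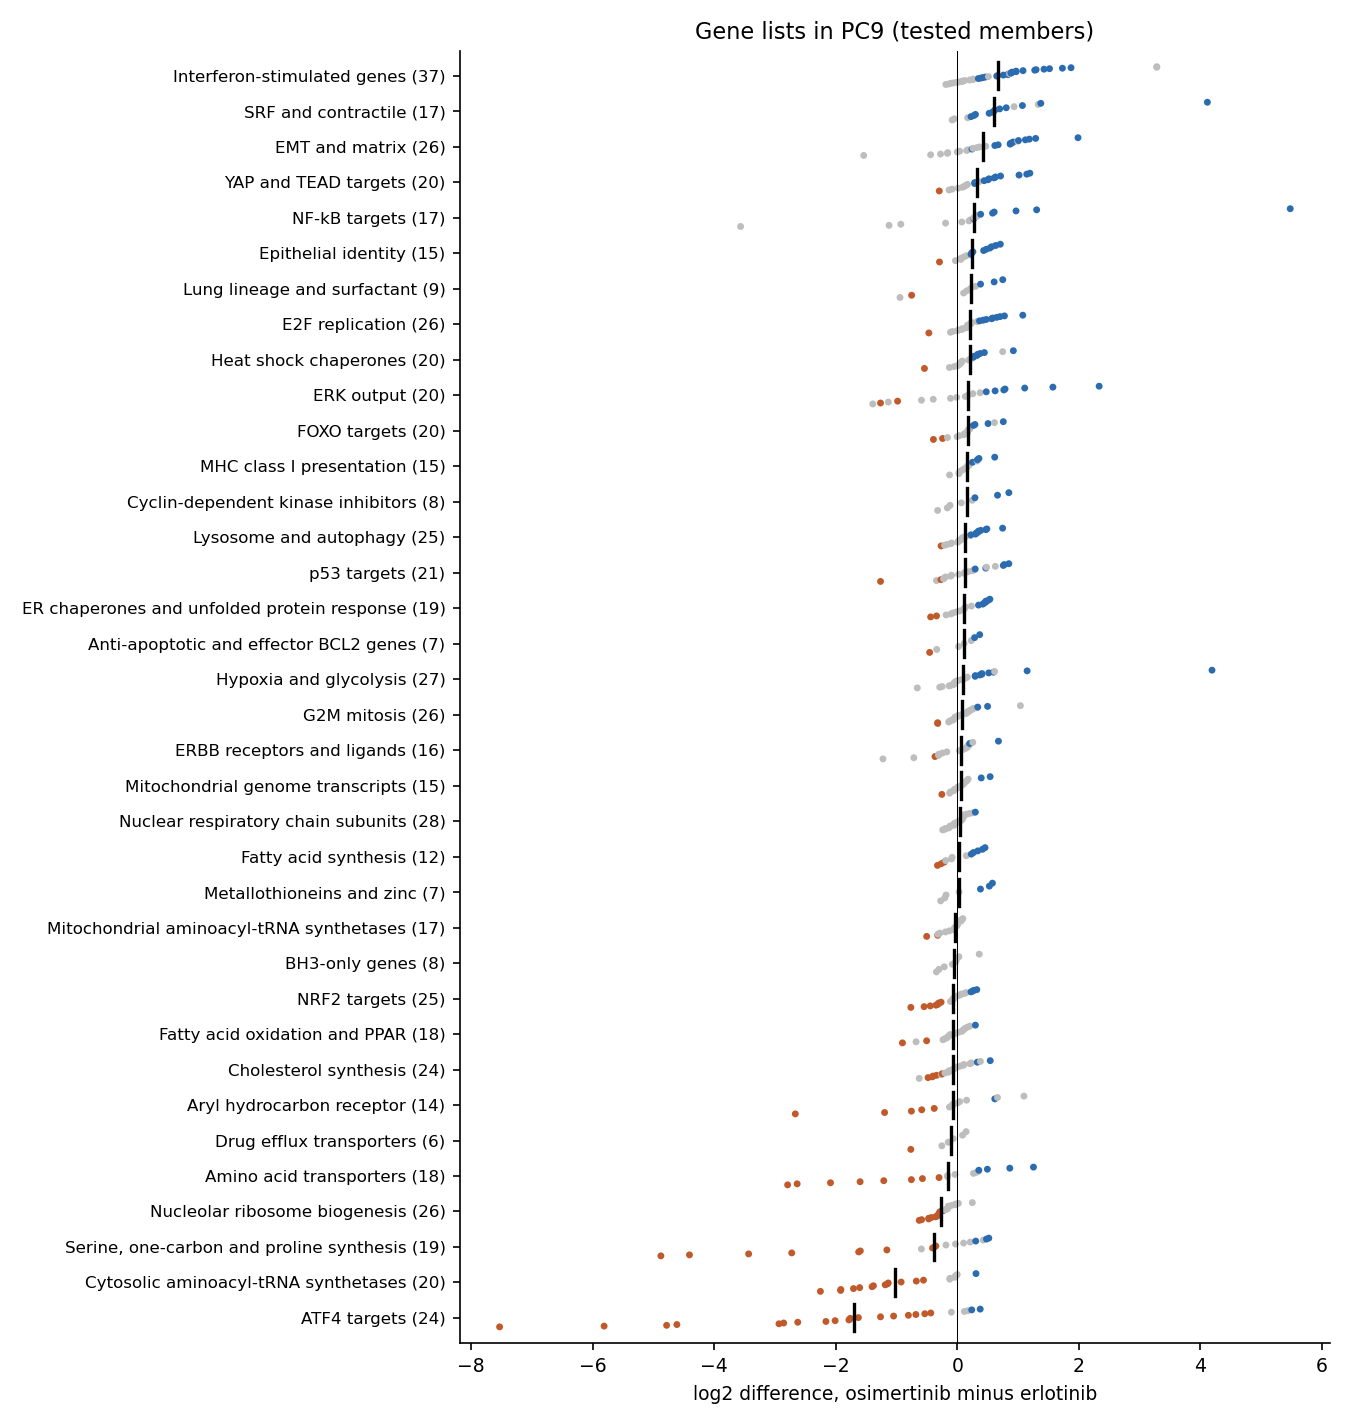
Log2 difference between osimertinib and erlotinib in PC9 cells for the tested members of 36 gene lists, with the number tested in brackets and a black bar at the list's median. Orange points passed with a higher level after erlotinib, blue points with a higher level after osimertinib and grey points did not pass; medians run from 0.67 for interferon-stimulated genes to -1.69 for ATF4 targets.

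Chaperones fold proteins in the endoplasmic reticulum, the cytosol and the mitochondria. Of 19 genes of ER chaperones and the unfolded protein response, 7 (36.8%) were higher after osimertinib and 2 (10.5%) higher after erlotinib (median 0.12). CALR, a lectin chaperone, was at 584 and 609 CPM after erlotinib and 793 and 939.9 CPM after osimertinib (log2 difference 0.54 ± 0.074, adjusted p = 4.64e-06), and HERPUD1, of ER-associated degradation, at 51.7 and 51.9 CPM against 40.1 and 36.3 CPM (log2 difference -0.44 ± 0.083, adjusted p = 0.000354). Heat shock chaperones had 7 of 20 (35%) higher after osimertinib and 1 (5%) higher after erlotinib (median 0.20). HSPB1, a small heat shock protein, was at 205 and 169.7 CPM against 349 and 362 CPM (log2 difference 0.92 ± 0.10, adjusted p = 1.34e-07). The member in the other direction was HSPD1, the mitochondrial chaperonin, with a log2 difference of -0.54 ± 0.081 (adjusted p = 1.49e-05) and 17 pseudogenes named after it.

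Cell cycle genes differed in part. Of 26 E2F replication genes, 9 (34.6%) were higher after osimertinib and 1, CDT1, higher after erlotinib (median 0.21). MCM10, a replication initiation factor, was at 1.03 and 1.48 CPM after erlotinib and 2.40 and 3.03 CPM after osimertinib, where T0 cells had 60 and 65.8 CPM (log2 difference 1.08 ± 0.22, adjusted p = 0.000891). CDT1, which licenses origins, had a log2 difference of -0.47 ± 0.12, which did not pass without erlotinib replicate 1 (log2 -0.34, adjusted p = 0.117) or osimertinib replicate 1 (log2 -0.41, adjusted p = 0.0863). Of 26 mitotic genes, 2 (7.69%) were higher after each drug (median 0.082), near the 10.1% and 6.41% of all genes. ANLN was among them (log2 difference 0.50 ± 0.074, adjusted p = 1.44e-05). CDC20 (-0.32 ± 0.083) did not pass without erlotinib replicate 1 (log2 -0.26) or osimertinib replicate 2 (log2 -0.31). MKI67 was at 35.2 and 46 CPM against 42.9 and 49.5 CPM and did not pass (log2 difference 0.18, adjusted p = 0.34), but it passed without erlotinib replicate 2 (log2 0.39, adjusted p = 0.0397). Of 8 inhibitors of cyclin-dependent kinases, 3 were higher after osimertinib (median 0.16). CDKN1A, encoding p21, was at 15.3 and 10.8 CPM against 22.6 and 24.2 CPM (log2 difference 0.85 ± 0.12, adjusted p = 3.67e-06). It also leads the p53 targets, of which 5 of 21 (23.8%) were higher after osimertinib and 2 (9.52%) higher after erlotinib (median 0.12). GDF15, on the list of p53 and that of ATF4, was the lowest of them, at 15 and 12.5 CPM against 5.41 and 6.05 CPM (log2 difference -1.26 ± 0.19, adjusted p = 1.69e-05).

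Of 15 tested genes of the BCL2 family, which sets the threshold of apoptosis, 3 (20%) passed, beside 16.6% of all genes. Of the 8 BH3-only genes, 0 passed in edgeR, 0 in DESeq2 and 1 (BBC3) at an unadjusted p under 0.05 (median log2 difference -0.053). BCL2L11, which encodes BIM, was at 61.7 and 59.5 CPM after erlotinib and 59.9 and 63.6 CPM after osimertinib, above the 18.9 and 19.1 CPM of T0 (log2 difference 0.027 ± 0.082, adjusted p = 0.893), and the libraries of the drugs overlapped. Of 7 tested anti-apoptotic and effector genes, 2 were higher after osimertinib and 1 higher after erlotinib (median 0.11). MCL1 was at 261 and 270.1 CPM against 326 and 322 CPM (log2 difference 0.29 ± 0.066, adjusted p = 0.00273). BCL2L1, encoding BCL-XL, had a log2 difference of 0.37 ± 0.08 (adjusted p = 0.00145), with an adjusted p of 0.0506 without osimertinib replicate 2 (log2 0.29). BCL2L2 was at 40.2 and 37.1 CPM against 29.2 and 27.1 CPM (log2 difference -0.45 ± 0.10, adjusted p = 0.00254). Its exons overlap those of BCL2L2-PABPN1 on the same strand, so its reads cannot be assigned with certainty.

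Of 24 genes of cholesterol synthesis, 5 were higher after erlotinib and 2 higher after osimertinib (median -0.075). MSMO1, a sterol oxidase, was at 109.8 and 116 CPM after erlotinib and 77.2 and 84.8 CPM after osimertinib (log2 difference -0.48 ± 0.078, adjusted p = 5.08e-05). HMGCS1 did not pass (log2 difference -0.086 ± 0.076, adjusted p = 0.521). Fatty acid synthesis had 5 of 12 higher after osimertinib and 3 higher after erlotinib (median 0.032), with FADS2 the highest (log2 difference 0.46 ± 0.075, adjusted p = 5.78e-05), whose exons overlap FEN1 on the same strand. Fatty acid oxidation had 1 of 18 (5.56%) higher after osimertinib and 2 (11.1%) higher after erlotinib (median -0.073), beside 10.1% and 6.41% of all genes. ECI1, an enoyl-CoA isomerase of this list, was at 128 and 109 CPM against 64.8 and 61.8 CPM (log2 difference -0.90 ± 0.088, adjusted p = 1.39e-08). Hypoxia and glycolysis genes had 9 of 27 higher after osimertinib and 18 that did not pass (median 0.10). SLC2A3, a glucose transporter, was at 11.4 and 9.45 CPM against 23.3 and 22.8 CPM (log2 difference 1.15 ± 0.11, adjusted p = 8.45e-09).

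Lysosome and autophagy genes had 10 of 25 (40%) higher after osimertinib and 1, ULK1, higher after erlotinib (median 0.12). WIPI1, of the early autophagosome, was at 14.7 and 17.8 CPM after erlotinib and 27.8 and 26.8 CPM after osimertinib (log2 difference 0.75 ± 0.12, adjusted p = 2.38e-05), and the call of ULK1 (log2 difference -0.27) did not hold without erlotinib replicate 1 (log2 -0.19, adjusted p = 0.197) or osimertinib replicate 2 (log2 -0.18, adjusted p = 0.24). Of 28 nuclear subunits of the respiratory chain, 1 (SDHA) was higher after osimertinib (median 0.043), at 36.7 and 31.6 CPM against 40.4 and 43.6 CPM, a call that did not hold without erlotinib replicate 2 (log2 0.19, adjusted p = 0.344), osimertinib replicate 1 (log2 0.36, adjusted p = 0.0586) or osimertinib replicate 2 (log2 0.24, adjusted p = 0.239). Of 15 mitochondrial genome transcripts, 2 (13.3%) were higher after osimertinib and 1 (6.67%) higher after erlotinib (median 0.065), near the 10.1% and 6.41% of all genes. MT-ND6 was at 572 and 737 CPM against 981 and 925 CPM (log2 difference 0.54 ± 0.11, adjusted p = 0.000599). Of 7 tested metallothionein and zinc genes, 3 were higher after osimertinib (median 0.03), with SLC39A10, a zinc importer, at 44.3 and 48.2 CPM against 69.1 and 69.1 CPM (log2 difference 0.58 ± 0.086, adjusted p = 1.42e-05).

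The same contrast in H1650, another EGFR-mutant lung cancer line with 2 libraries per drug at the same doses and time, called 1672 genes (8.75%). Both lines shared 808 of these calls, 25.5% of those in PC9 and 48.3% of those in H1650, and 735 of the 808 had the same direction. The difference between the lines itself passed for 995 genes (5.21%). Of the 24 ATF4 targets, 13 differed between the lines, and the list's median in H1650 was -1.09 against -1.69 in PC9. PSAT1 illustrates the size, with a log2 difference of -2.38 in H1650 against -4.88 in PC9 (line difference 2.49 ± 0.11, adjusted p = 4.14e-15). DDIT4 had -0.20 in H1650 (adjusted p = 0.142) against -1.77 in PC9 (line difference 1.57 ± 0.12, adjusted p = 1.35e-09). GDF15, by contrast, differed more in H1650, with -2.21 (line difference -0.94 ± 0.27, adjusted p = 0.0331). CYP1A1 had -3.33 in H1650 and -2.67 in PC9, and this line difference did not pass (adjusted p = 0.459).

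Several genes higher after osimertinib in PC9 also differed between the lines. KRT17 and SUSD2 had log2 differences of -0.15 and 0.043 in H1650 that did not pass, against 1.73 and 1.78 in PC9, and both line differences passed (adjusted p = 8.75e-08 and 1.36e-06). FOS was higher after osimertinib in H1650 as well, by a log2 difference of 0.77 against 2.34 (line difference -1.57 ± 0.15, adjusted p = 5.57e-08). SLC7A7 had opposite signs, -1.87 in H1650 at about 1 CPM or less and 1.26 in PC9 (adjusted p = 0.00011). Cholesterol synthesis had another pattern in H1650, with 18 of 24 genes higher after osimertinib in H1650 and a median of 0.58 there, and 15 of 24 differed between the lines. MSMO1 had 0.71 in H1650 and -0.48 in PC9 (line difference 1.19 ± 0.11, adjusted p = 4.51e-08). The medians of ERK output and E2F replication also had opposite signs, -0.41 and -0.22 in H1650 against 0.18 and 0.21 in PC9. In H1650, 10 of 20 and 9 of 26 of their genes were higher after erlotinib, and 3 and 0 higher after osimertinib. Of the cytosolic synthetases, 12 of 20 were higher after erlotinib in H1650 and 12 differed between the lines, with medians of -0.50 in H1650 and -1.03 in PC9.

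**Figure D5:**
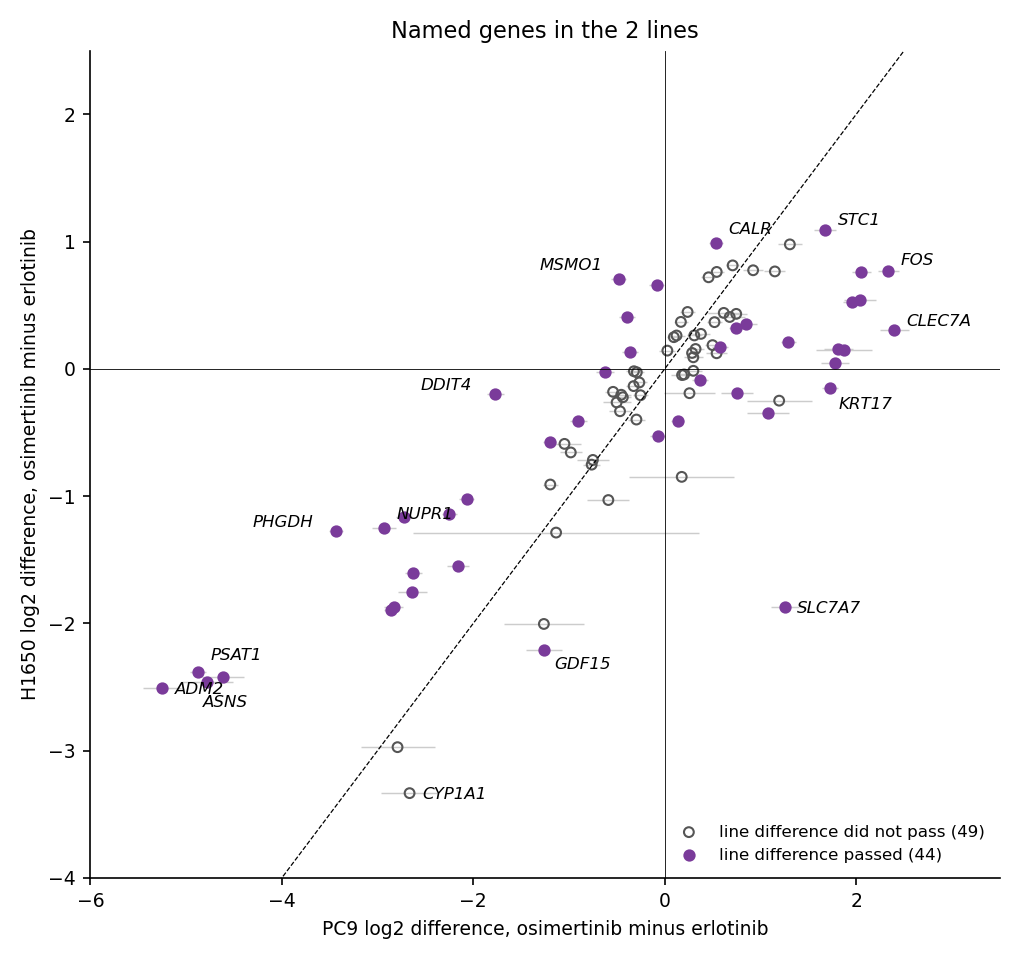
Log2 difference between osimertinib and erlotinib in PC9 (horizontal axis, bars of 1 SE) and H1650 (vertical axis) for the 93 named genes with over 1 CPM in H1650 when the means of both drugs are summed. Purple points (44) passed the test of the difference between the lines and open circles (49) did not, and the dashed line marks equal values; PSAT1, ADM2, ASNS and PHGDH at the lower left lie above it, nearer to 0 in H1650, while GDF15 lies below it.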

How the data were processed

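RNA-seq of PC9 and H1650 cells was taken up at the counts deposited for 12 libraries. The authors processed reads with DolphinNext, assigned them to genes with featureCounts and deposited whole-number counts per gene symbol, not normalized. The submitters' processing notes name GRCh38 and DESeq2. The annotation and the strand setting are not given in the sources used here, so reads of overlapping genes on opposite strands, present for 34 of the 96 named genes, may not be told apart. Each sample column was mapped by its label.

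The counts entered edgeR 4.0.16 (R 4.3.3) with TMM factors, its expression filter by group, 6 group terms and the quasi-likelihood test. The other 8 libraries thus bear on the filter, the scaling and the spread. The filter left out 41483 genes. Calls were made at 0.05 after Benjamini-Hochberg adjustment. SEs are the log2 difference over the root of F.

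The members and the 36 gene lists (684 genes, 656 tested) were chosen with earlier results of these data known. Named by rule were the 10 highest and 10 lowest differences among called genes of at least 10 CPM, the called extremes of each list of at least 1 CPM, and pathway nodes. All other genes with values were chosen after their values were seen, as were the promoter stretches of synthetases and interferon genes. Positions and overlaps came from GENCODE 29, promoters from RefSeq by symbol. Replicate numbers were not taken to pair the samples. The deviations of replicate 1 from the group mean had a correlation of 0.0679 between PC9 erlotinib and osimertinib, which cannot exclude pairing. Alternatives were DESeq2 (1.42.0), scaling by RLE or upper quartile, other filters and thresholds, fewer libraries, a replicate block and leaving out each library. Fits were first tested on simulated data with known changes. Some genes of the lists are not reported here.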

Additional observations from a re-analysis of the deposited data

Results flagged for a closer look

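Of 96 named genes, 45 had a difference between osimertinib and erlotinib that itself differed between the lines (edgeR's quasi-likelihood test of the interaction, adjusted p from 4.14e-15 to 0.0484). In 31 of them the difference had the same sign in H1650 and was smaller than in PC9, in 3 it had the same sign and was larger, and in 11 the sign was opposite. These signs are those of the estimates, whether or not they passed. Of the genes of opposite sign, SLC7A7, KLF6, MSMO1 and MCM10 passed in both lines. KRT17, CNN1, BCL2L1, SESN1 and ERRFI1 did not pass in H1650, and HMGCS1 and CCND1 did not pass in PC9. Values below are H1650 minus PC9, in log2.

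Among genes of the ATF4 programme and amino acid metabolism, the difference between lines was 2.75 for ADM2, 2.49 for PSAT1, 2.33 for ASNS, 2.19 for CHAC1, 2.16 for PHGDH, 1.68 for NUPR1, 1.57 for DDIT4, 1.56 for MTHFD2, 1.11 for GARS1, 1.05 for XPOT, 1.02 for TRIB3, 0.96 for STC2, 0.96 for PCK2, 0.88 for SLC1A4, 0.62 for ATF4, 0.61 for SESN2 and -0.94 for GDF15. It was -3.13 for SLC7A7.

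Among genes higher after osimertinib in PC9, it was -4.75 for CNN1, -2.09 for CLEC7A, -1.88 for KRT17, -1.73 for SUSD2, -1.73 for OAS2, -1.66 for TNNC1, -1.57 for FOS, -1.50 for FOSB, -1.43 for IGFBP5, -1.42 for MCM10, -1.29 for ZBED6CL, -1.08 for FN1, -0.95 for SESN1, -0.58 for STC1, -0.50 for CDKN1A, -0.45 for BCL2L1, -0.42 for MUC1, -0.41 for SLC39A10 and 0.45 for CALR. The value of CNN1 has an SE of 1.21. In H1650 it averaged 0.14 CPM after erlotinib and 0.094 CPM after osimertinib, near the detection limit, and did not pass (edgeR, adjusted p = 0.792).

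For the remaining genes it was 1.19 for MSMO1, 0.80 for KLF6, 0.75 for HMGCS1, 0.60 for POLR1B, 0.50 for ERRFI1, 0.49 for ECI1, -0.45 for TIPARP and -0.54 for CCND1. TIPARP, CCND1 and HMGCS1 did not pass in PC9.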

How the results depend on the processing

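The called genes numbered from 2619 to 4166 under other tools, normalizations, filters and sets of libraries that kept both replicates of each drug. At least 2568 of the 3163 were shared in each of these, and fewer were shared when a drug-treated PC9 library was left out. The replicate block gave 4166 calls, which held all 3163, and 1722 genes that differed between the lines instead of 995; the numbers were not taken as pairing, and of the named genes EGFR and ERBB3 then passed and no other call changed. An adjusted p of 0.01 gave 1930 calls, 1257 higher after osimertinib and 673 higher after erlotinib. A test against a 2-fold difference (glmTreat) gave 92, with 37 and 55 in these directions, all 92 over 2-fold. With at least 10 counts in every library, 233 genes over 2-fold were called among 13076 tested. Leaving out each library gave 2108 to 2398 calls, the lowest without osimertinib replicate 2, and 750 to 895 higher after erlotinib, the lowest without osimertinib replicate 1.

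Medians near 0 changed sign when single libraries were left out, with lowest and highest values of -0.12 and 0.14 for ERBB receptors and ligands, -0.021 and 0.098 for fatty acid synthesis, -0.11 and 0.031 for mitochondrial synthetases, -0.031 and 0.14 for mitochondrial transcripts, -0.016 and 0.22 for cyclin-dependent kinase inhibitors, -0.23 and 0.42 for metallothioneins, -0.012 and 0.13 for mitotic genes, and -0.062 and 0.11 for respiratory subunits. BCL2L11 ranged from -0.016 to 0.071. Of the checks of named genes, 1176 kept direction and call, 45 lost the call, 7 gained it and 1 changed sign. SDHA lost its call with DESeq2 (adjusted p = 0.0611), upper quartile normalization (0.0539), no filter (0.0846) and without erlotinib replicate 2 (0.344), osimertinib replicate 1 (0.0586) or 2 (0.239), with values of 0.19 to 0.36. PPP1R15A lost it also with no filter (0.0893) and in a fit of the 4 libraries (0.0675). The cause of these changes was not tested. The list of mitochondrial transcripts has no value with those genes left out. Counting limits bear most on FGF21, INHBE, CXCL8, SPRY4 and DUSP6, with few reads.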
